A study of Homo sapiens with 6 samples.

Results

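The transcription factors that drive epithelial-mesenchymal transition (EMT), together with vimentin, were examined in SUM159 cells after knockdown of the type III TGF-β receptor (TβRIII, encoded by TGFBR3). The set was given by name and comprised 10 genes: SNAI1, SNAI2, TWIST1, TWIST2, ZEB1, ZEB2, FOXC1, FOXC2, PRRX1 and VIM. A gene was read from the row of the array table that carried its symbol alone, and from the row with the highest mean where there were several. By this rule 8 of the 10 genes were measured, among 18276 genes and 22148 rows in all. The annotation used here paired no row with TWIST2 or FOXC1 alone, and these genes were not analysed here.

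SUM159 is a human triple negative breast cancer cell line with mesenchymal character. The control group was 3 arrays of SUM159 control cells, and the TβRIII-KD group was 3 arrays of SUM159 cells labelled TGFBR3KD, which stably expressed an shRNA against TGFBR3 from a lentiviral pLKO.1-puro vector. Both groups were grown in three-dimensional matrigel culture without further treatment, and RNA was taken at day 6. The knockdown used a single shRNA in the arrays, so an effect of that shRNA on other transcripts and an effect of losing TβRIII cannot be told apart. Separate cultures for the 3 arrays of a group are not stated in the sources, so p-values measure the spread between these arrays, which may be technical. As in any bulk RNA measurement, fewer cells expressing a gene and less RNA per cell cannot be told apart.

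In EMT, epithelial cells lose cell-cell junctions and gain a motile, spindle-shaped phenotype. SNAI1 and SNAI2 (zinc finger repressors), ZEB1 and ZEB2 (zinc finger and homeodomain repressors) and the basic helix-loop-helix factors TWIST1 and TWIST2 bind E-box sequences, and the SNAI and ZEB factors repress epithelial genes such as CDH1 (E-cadherin) directly. FOXC1 and FOXC2 (forkhead factors) and PRRX1 (a homeobox factor) are also able to induce EMT. VIM encodes vimentin, the intermediate filament protein used as the standard mesenchymal marker. TGF-β induces several of these factors, and TβRIII binds TGF-β ligands and presents them to the signaling receptors.

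The ZEB transcripts are targets of the microRNAs of the miR-200 family, which the ZEB factors repress in turn. The 5 mature sequences are shown because their seeds (bases 2 to 8, in capitals) fall into 2 groups. The sequences are those of RefSeq (GRCh38.p14), written 5′ to 3′, and all 5 names matched. The first group, with the seed AAUACUG, comprised miR-200b, miR-200c and miR-429. The second group, with the seed AACACUG, comprised miR-200a and miR-141.
hsa-miR-200b-3p: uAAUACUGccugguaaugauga
hsa-miR-200c-3p: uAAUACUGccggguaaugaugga
hsa-miR-429: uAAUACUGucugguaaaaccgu
hsa-miR-200a-3p: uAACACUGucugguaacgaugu
hsa-miR-141-3p: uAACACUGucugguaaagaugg

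On the side of the repressed genes, the E-box core bound by the SNAI and ZEB factors is CAGGTG, or CACCTG when read on the other strand. RefSeq promoter windows of 300 bases around each gene start (GRCh38.p14) were searched for either form. The letters were present in 20.6% of all 35116 windows. They were present in 16 of the 26 windows (61.5%) of epithelial genes chosen as known targets of EMT repressors. Windows were found for 19 of the 33 genes of this list, on which an E-box is part of what the genes are known for. For the EMT genes themselves, 12 windows of 6 genes were found, most of them at ZEB1. SNAI1, SNAI2, TWIST1 and FOXC2 had no window and were not searched. Of the 12 windows, 2 (16.7%) had a match, both of them at ZEB1, and the single window of ZEB2 had no match. The bases before the gene start are shown for 3 epithelial genes, with the E-boxes in capitals. MUC1 fell in TβRIII-KD, and JUP (plakoglobin) had the largest positive fold change among the epithelial targets with a match. CRB3 (a Crumbs polarity protein) held 5 matches in 1 window, as did CLDN7, which is not shown. Another window of JUP, also not shown, held 0 matches. Each is written 5′ to 3′ on the strand of its gene. A match is a description of the letters and not a bound site.
MUC1, chr1:155192916-155193165, minus strand: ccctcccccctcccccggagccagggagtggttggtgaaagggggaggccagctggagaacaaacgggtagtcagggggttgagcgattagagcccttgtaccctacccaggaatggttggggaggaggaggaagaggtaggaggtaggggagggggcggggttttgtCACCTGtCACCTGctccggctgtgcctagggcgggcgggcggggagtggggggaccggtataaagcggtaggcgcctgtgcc
JUP, chr17:41785977-41786226, minus strand: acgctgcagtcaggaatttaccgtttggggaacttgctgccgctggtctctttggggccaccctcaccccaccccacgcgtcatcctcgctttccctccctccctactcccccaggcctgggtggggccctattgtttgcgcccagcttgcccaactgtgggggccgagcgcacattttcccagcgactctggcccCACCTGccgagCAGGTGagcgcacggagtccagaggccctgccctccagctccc
CRB3, chr19:6464021-6464270, plus strand: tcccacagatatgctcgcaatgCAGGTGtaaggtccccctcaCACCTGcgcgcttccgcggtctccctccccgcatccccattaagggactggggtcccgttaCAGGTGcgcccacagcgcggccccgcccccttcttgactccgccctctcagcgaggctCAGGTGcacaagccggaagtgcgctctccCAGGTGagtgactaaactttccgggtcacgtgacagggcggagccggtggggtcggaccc

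ZEB2 was the one member past the test in TβRIII-KD cultures. Values are log2 signals after RMA normalization, a fold change is TβRIII-KD over control on the log2 scale unless written as n-fold, and a gene was past the test when its limma p, adjusted by the Benjamini-Hochberg method over all 22148 rows, was under 0.05. By this test 1 of the 8 measured genes (12.5%) rose and 0 fell, whereas 3.35% of all rows passed, 1.24% higher and 2.11% lower in TβRIII-KD. Unadjusted p-values were under 0.05 for 4 of the 8, ZEB2 included, and for 15.2% of all rows. The groups did not overlap for 4 of the 8, 3 of them higher and 1 lower in TβRIII-KD, against 20.7% of all rows. None of the 8 genes also passed the fold limit of 0.5 on the log2 scale that the study applied. The 8 fold changes had a median of 0.15 on the log2 scale, beside 0.01 for all rows. Of the 8, 5 were positive, beside 12107 of all 22148 rows. As the plot of signal by array shows, the sign of the estimated fold change differed within the SNAI and within the ZEB genes. Of these, ZEB2 alone passed the test.

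**Figure D1:**
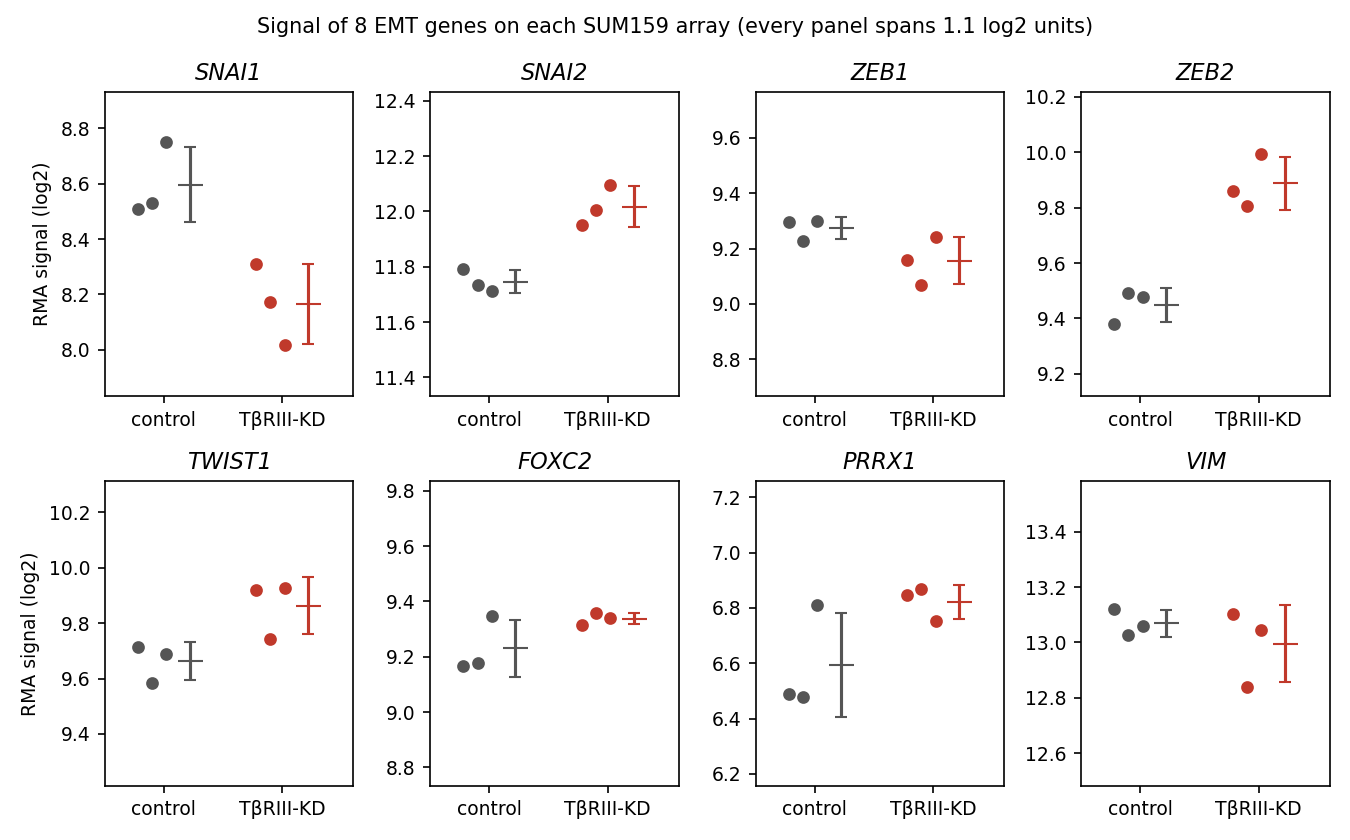
RMA signal (log2, vertical axis) of the 8 measured EMT genes on each array, with 3 control arrays in grey and 3 TβRIII-KD arrays in red. Points are arrays, in the order of their replicate numbers, the bar beside them is the mean ± SD, and every panel spans the same range. The groups are apart for SNAI1, SNAI2, ZEB2 and TWIST1, with SNAI1 the lower one in TβRIII-KD, and they overlap for the other 4.

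ZEB2 was measured at 9.38, 9.49 and 9.48 on the control arrays and at 9.860, 9.807 and 9.996 on the TβRIII-KD arrays. All 3 TβRIII-KD arrays lay above all controls, with a gap of 0.32 between the groups. The mean rose from 9.45 ± 0.06 to 9.89 ± 0.10 (SD, n = 3 each), a log2 fold change of 0.44 (SE 0.08; 95% confidence interval 0.26 to 0.62) or 1.36-fold. The limma adjusted p was 0.0220, and the exact two-sided permutation p was 0.1, the smallest that 3 against 3 arrays allow. The fold change lay between 0.38 and 0.48 under all 16 alternatives, but the adjusted p ranged from 0.0130 to 0.133. The call was lost without TβRIII-KD array 1 (adjusted p = 0.0552), without control array 1 (0.113), without control array 2 (0.0607), without control array 3 (0.0793) and with the unpaired test that the methods name, after adjustment (0.133).

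ZEB1, the paralogue of ZEB2, was measured at 9.30, 9.23 and 9.30 in control and at 9.16, 9.07 and 9.24 in TβRIII-KD. The groups overlapped, since TβRIII-KD array 3 lay above control array 2. The log2 fold change was -0.12 (SE 0.07; 95% interval -0.29 to 0.05; adjusted p = 0.521). The interval leaves room for a small fall, no change or a rise of up to 0.05, and its upper end lies below the lower end of the interval for ZEB2.

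SNAI1 (Snail) was measured at 8.51, 8.53 and 8.75 in control and at 8.31, 8.17 and 8.02 in TβRIII-KD. Every TβRIII-KD array was below every control array, with a gap of 0.20. The log2 fold change was -0.43 (SE 0.10; 95% interval -0.66 to -0.20), close in size to that of ZEB2 and opposite in sign. It did not pass the test (adjusted p = 0.0614). Over the alternatives the adjusted p ranged from 0.0425 to 0.267, and it went under 0.05 with a mean-variance trend (0.0497) and when rows below the median mean signal were left out (0.0425).

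SNAI2 (Slug) was measured at 11.79, 11.73 and 11.71 in control and at 11.949, 12.004 and 12.096 in TβRIII-KD. The groups did not overlap, here with the TβRIII-KD arrays above the controls by a gap of 0.16. The log2 fold change was 0.27 (SE 0.07; 95% interval 0.10 to 0.44), and it did not pass the test (adjusted p = 0.0981; 0.0548 to 0.298 over the alternatives). The row lay at percentile 98.4 of mean signal over all rows, whereas that of SNAI1 lay at percentile 64.1. Signals of different rows depend on their probes and do not rank the transcripts.

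TWIST1 was measured at 9.71, 9.58 and 9.69 in control and at 9.92, 9.74 and 9.93 in TβRIII-KD. The groups were apart by 0.03, less than the spread within either. This gave a log2 fold change of 0.20 (SE 0.08; 95% interval 0.02 to 0.39; adjusted p = 0.282).

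FOXC2 was measured at 9.17, 9.18 and 9.35 in control and at 9.32, 9.36 and 9.34 in TβRIII-KD. Control array 3 lay within the TβRIII-KD values. For FOXC2 the log2 fold change was 0.11 (SE 0.08; 95% interval -0.07 to 0.28; adjusted p = 0.577). PRRX1 was measured at 6.49, 6.48 and 6.81 in control and at 6.85, 6.87 and 6.75 in TβRIII-KD. Here too control array 3 stood with the TβRIII-KD arrays. On the log2 scale PRRX1 differed by 0.23 (SE 0.10; adjusted p = 0.334), and with a mean signal at percentile 31.0 PRRX1 was the dimmest of the 8 rows.

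VIM was among the brightest rows of the arrays, at percentile 99.6 of mean signal. It was measured at 13.12, 13.03 and 13.06 in control and at 13.10, 12.84 and 13.05 in TβRIII-KD. The groups overlapped, and TβRIII-KD array 2 was the lowest of the 6. The log2 fold change was -0.07 (SE 0.09; 95% interval -0.27 to 0.13; adjusted p = 0.760). A fall of more than 0.27 or a rise of more than 0.13 lay outside the interval. These bounds are for the array signal, in which changes of very bright rows can be compressed. Without TβRIII-KD array 2 the fold change was 0.01.

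**Figure D2:**
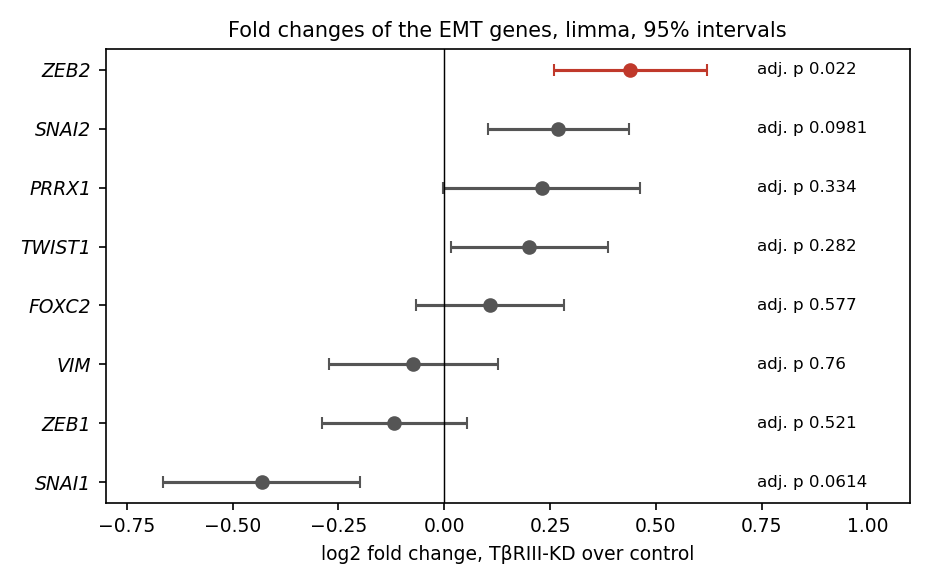
Fold change on the log2 scale (TβRIII-KD over control, horizontal axis) for the 8 genes, with bars for the 95% confidence interval of limma and the adjusted p of each beside it. ZEB2 (red) is the gene past the test, and SNAI1 is the gene farthest below 0.

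The SNAI and ZEB paralogues were then compared within each array, a comparison chosen after the values were seen. The difference of SNAI2 minus SNAI1 was 3.28, 3.20 and 2.96 in control and 3.64, 3.83 and 4.08 in TβRIII-KD. The groups did not overlap. The difference grew by 0.70 (SE 0.16), which is a 1.63-fold shift of the ratio toward SNAI2, and by 0.59 to 0.81 with any 1 array left out. The difference of ZEB2 minus ZEB1 was 0.08, 0.26 and 0.17 in control and 0.70, 0.74 and 0.75 in TβRIII-KD. It grew by 0.56 (SE 0.05), a 1.47-fold shift of the ratio toward ZEB2, and by 0.51 to 0.60 with any 1 array left out. The size of a difference depends on the probes of the rows, so only its change between groups is read. Since the pairs were picked for their opposite signs, these values restate the signals above as ratios and are given as a description, with no test.

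**Figure D3:**
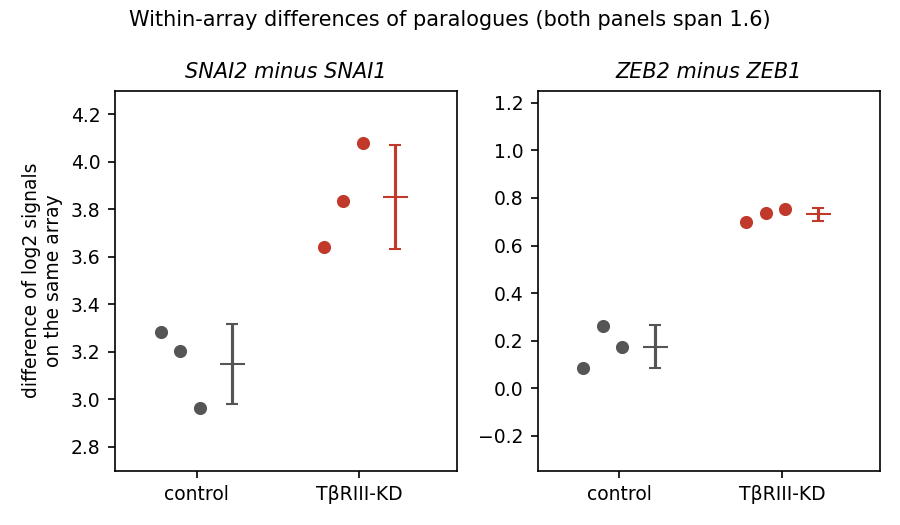
Difference of the log2 signals of paralogues on the same array (vertical axis), SNAI2 minus SNAI1 on the left and ZEB2 minus ZEB1 on the right, for 3 control (grey) and 3 TβRIII-KD (red) arrays. Points are arrays and the bar is the mean ± SD. Every TβRIII-KD array lies above every control array in both panels, by gaps of 0.36 and 0.44.

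Over the 6 arrays, the genes whose signal was most like that of ZEB2 were H2AJ (a histone H2A variant), with a Pearson r of 0.998, and CDK6 (a kinase that drives G1 progression), with an r of 0.997. The correlations are a description over 6 arrays in 2 groups, and 33 genes had an r over 0.98. CDK6 rose by 0.59 (adjusted p = 0.00858 by limma), whereas H2AJ, at 0.17, did not pass (adjusted p = 0.266).

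The knockdown itself was visible on the arrays. TGFBR3 was measured at 10.81, 10.89 and 10.56 in control and at 9.72, 10.01 and 10.16 in TβRIII-KD, and fell by 0.79 (adjusted p = 0.0145 by limma). Its call was lost without TβRIII-KD array 2, control array 1 or control array 2 (adjusted p 0.0554 to 0.0770). The medians of the 6 arrays lay between 7.67 and 7.71. Markers of mesenchymal breast cancer lines were bright, with 7 of 7 measured markers above the median signal and a mean of 12.2 to 12.3 in control and 12.1 to 12.2 in TβRIII-KD. Of these, SPARC was lower in TβRIII-KD. Of 6 leukocyte markers 0 passed the test, and their mean was 6.348 to 6.404 in control and 6.31 to 6.41 in TβRIII-KD. Of 5 hepatocyte markers 0 passed as well. Of 6 endothelial markers ERG passed (-0.47), of 10 luminal markers GATA3 (0.68) and of 3 basal markers KRT5 (-0.93). Of 8 stress and proliferation markers JUN passed (-0.47). Each marker list is too short for its count to be set against the 3.35% of all rows that passed. ERG and JUN each lost the call in 5 of the 6 omissions of a single array, all but that of TβRIII-KD array 3 (adjusted p 0.0579 to 0.0750 for ERG and 0.0742 to 0.143 for JUN). The part of these genes in the member values was not tested.

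The EMT genes were next set beside gene lists for their regulators, partners and targets. Like the EMT genes, the lists were chosen with earlier results of these data known, so their shares are given as a description. Among 23 other EMT-linked transcription factors, 2 rose and 1 fell (13.0%, against 3.35% of all rows), with a median log2 fold change of 0.10. ID1 and ID3 encode inhibitors that hold E proteins, the dimerization partners of TWIST1, away from DNA. ID1 rose by 0.90 (adjusted p = 0.0388) and ID3 by 0.68 (0.0194). Their relative ID2 had a fold change of 0.93 and did not pass (0.0512), though it did so in 9 of 16 alternatives (0.00605 to 0.319 over all of them). The E proteins themselves did not pass, with 0.11 for TCF3, -0.01 for TCF4 (above 0, at up to 0.033, with repeated quantile normalization and without TβRIII-KD array 3 or control array 2) and -0.06 for TCF12. ETS1, an ETS family activator, fell by 0.50 (adjusted p = 0.0316). All 3 calls depended on single arrays. ID1 and ID3 lost theirs without TβRIII-KD array 1 or 2 or control array 1 or 2 (adjusted p 0.0858 to 0.136 for ID1 and 0.0619 to 0.0878 for ID3), and ETS1 lost its call without any array but TβRIII-KD array 3 (0.0821 to 0.123).

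Of 33 genes for cofactors and stability of the SNAI, TWIST and ZEB proteins, 0 passed the limma test, beside 3.35% of all rows. The list is too short to tell 0 from that share. The 33 genes include CTBP1 and CTBP2 (corepressors of the ZEB factors), KDM1A and GSK3B (the kinase that marks SNAI1 for degradation). The smallest p was that of FBXL14, an F-box protein that targets SNAI1 and SNAI2 for degradation, at -0.19 (adjusted p = 0.304), the 1 gene of the 33 with an unadjusted p under 0.05, beside 15.2% of all rows. The fold changes of the list ran from -0.25 to 0.22, with a median of 0.06.

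The upstream inducers moved in both directions. Of 34 measured, 2 rose and 3 fell (14.7%, against 3.35% of all rows), with a median of 0.01. SMAD3, a transducer of TGF-β signaling, rose by 0.44 (adjusted p = 0.0111), and the Notch ligand JAG2 rose by 0.38 (0.0349). NOTCH2 fell by 0.62 (0.0258), TGFBR2 (the type II TGF-β receptor) fell by 0.37 (0.0374) and STAT3 fell by 0.37 (0.0396). TGFB2, the ligand that depends most on TβRIII, had a fold change of -0.51 that did not pass (0.0847; 0.0306 to 0.339 over the alternatives, 2 of which called it). The calls of JAG2, TGFBR2 and STAT3 were lost without any 1 of the 6 arrays (adjusted p 0.0529 to 0.145, 0.0726 to 0.134 and 0.0591 to 0.134). NOTCH2 lost its call without TβRIII-KD array 1 or 2 or control array 1 or 3 (0.0779 to 0.110), and SMAD3 without control array 1 or 2 (0.0511 to 0.0618).

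The epithelial target genes that were called moved in both directions, and most rows of the list lay below the median signal. Of 32 epithelial genes known as targets of EMT repressors, 1 rose and 1 fell (6.25%, against 3.35% of all rows), with a median of 0.05. Unadjusted limma p-values were under 0.05 for 8 of the 32, against 15.2% of all rows. The groups did not overlap for 10 of the 32, against 20.7% of all rows. All 3 shares of the list were thus above those of all rows. CDH1, the best known target, was measured at 5.44, 5.42 and 5.17 in control and at 5.47, 5.46 and 5.35 in TβRIII-KD, at percentile 11.2 of mean signal. The groups overlapped (log2 fold change 0.08; 95% interval -0.13 to 0.29; adjusted p = 0.732), and without control array 3 the fold change was -0.0022. EPCAM, an epithelial adhesion molecule, had a fold change of -0.15 (adjusted p = 0.445), and its second, dimmer row one of 0.07 (0.896).

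MUC1, a membrane mucin of the apical surface, was the epithelial target that fell. It was measured at 9.005, 8.960 and 9.222 in control and at 8.14, 8.13 and 8.37 in TβRIII-KD. The groups were apart by 0.59, and the log2 fold change was -0.85 (SE 0.10; adjusted p = 0.00338; 0.000918 to 0.115 over the alternatives, where the adjusted unpaired test of the methods alone ended the call). Its promoter stretch shown above holds CACCTG at positions -82 and -75 from the gene start. LLGL2, a basolateral polarity gene, rose. It was measured at 7.56, 7.56 and 7.60 in control and at 8.030, 7.996 and 7.977 in TβRIII-KD, which is 0.43 higher on the log2 scale (SE 0.07; adjusted p = 0.0109). The call was lost without control array 1 (0.0674). JUP had a fold change of 0.37 and did not pass (adjusted p = 0.0513), though it did so in 9 of 16 alternatives (0.0295 to 0.197 over all of them). The keratins KRT8 and KRT18 had -0.36 (0.0871) and -0.38 (0.217). Of the 13 measured targets with an E-box match in a window, 5 had positive and 8 negative fold changes, 1 passed the test, and the median was -0.01. Of the 5 measured targets with a window and no match, 4 were positive and 0 passed. The other measured targets, CDH1 and LLGL2 among them, had no window and are in neither group.

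Of 19 epithelial transcription and splicing factors, 1 rose (5.26%, against 3.35% of all rows) and 0 fell. GATA3, the luminal lineage factor of the mammary gland, was measured at 7.61, 7.75 and 7.82 in control and at 8.27, 8.39 and 8.58 in TβRIII-KD, which is 0.68 higher on the log2 scale (SE 0.10; adjusted p = 0.00858). GRHL2 and OVOL2, which oppose ZEB1, had fold changes of 0.14 (adjusted p = 0.513) and 0.11 (0.577). ESRP2, an epithelial splicing factor, had a fold change of 0.03 (adjusted p = 0.933), and ESRP1 was not analysed here.

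The microRNA genes tied to the EMT factors included those of the miR-200 family. Of 12 measured microRNA genes 0 passed the limma test, beside 3.35% of all rows. The list is too short to tell 0 from that share. An unadjusted p under 0.05 was found for 2 (16.7%), near the 15.2% of all rows. The antisense RNAs of the list were not analysed here. In the first seed group, the fold changes were 0.08 for MIR200B, 0.08 for MIR200C and 0.14 for MIR429 (adjusted p 0.733, 0.818 and 0.375). In the second seed group, they were 0.34 for MIR200A and 0.03 for MIR141 (0.244 and 0.945). The value turned negative for MIR200C without control array 2 (-0.052) and for MIR141 with array weights, with repeated quantile normalization and without TβRIII-KD array 2 or control array 2 (as low as -0.10). The mean signals of the 5 rows lay between percentiles 4.02 and 30.7. The array does not separate primary transcripts from mature microRNAs, so these values say nothing of the mature forms shown above. MIR21 had the smallest p of the list, with a fold change of -0.86 (adjusted p = 0.219), overlapping groups and SDs of 0.60 and 0.49.

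The mesenchymal genes past the test moved in both directions, while most fold changes of the list were negative. Of 47 measured, 3 rose and 4 fell (14.9%, against 3.35% of all rows), and the median was -0.11. Positive fold changes numbered 12 of the 47, against 12107 of all 22148 rows. The groups did not overlap for 19 of the 47, 13 of them lower and 6 higher in TβRIII-KD, against 20.7% of all rows. NID1 (nidogen, a basement membrane linker) was measured at 7.80, 7.43 and 7.55 in control and at 9.37, 9.12 and 9.30 in TβRIII-KD, and rose by 1.67 (SE 0.11; adjusted p = 0.000206). COL3A1, a fibrillar collagen chain, rose by 0.77 (adjusted p = 0.0128) and TIMP2, a metalloproteinase inhibitor, by 0.59 (0.00384). CDH11, the mesenchymal cadherin-11, was measured at 8.73, 8.73 and 8.85 in control and at 7.91, 7.94 and 7.68 in TβRIII-KD, and fell by 0.93 (SE 0.09; adjusted p = 0.00144). The contractile genes MYL9 and TPM2 fell by 0.75 (0.0103) and 0.51 (0.0142), and the matrix glycoprotein gene SPARC fell by 0.45 (0.0189). CDH2 (N-cadherin) had a fold change of 0.13 (95% interval -0.09 to 0.35; adjusted p = 0.587) and FN1 (fibronectin) one of -0.13 (-0.40 to 0.13; 0.662), and both overlapped between groups. FAP, a fibroblast surface protease, had a fold change of -0.68 and did not pass (0.0534), though it did so in 5 of 15 alternatives (0.0424 to 0.308 over all of them).

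Calls that depended on single arrays in this list were those of COL3A1 (lost without control array 1 or 3, adjusted p 0.0555 to 0.0711), MYL9 (without control array 1, 0.0548), TPM2 (without TβRIII-KD array 2 or control array 1 or 3, 0.0621 to 0.0746) and SPARC (without TβRIII-KD array 1 or 2 or control array 1 or 3, 0.0606 to 0.0997). NID1, TIMP2 and CDH11 passed in each of the 6 omissions.

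Beside VIM, 14 genes of other intermediate filaments were measured, and 1 rose (7.14%, against 3.35% of all rows). SYNM (synemin, a filament protein that co-assembles with vimentin) was measured at 8.28, 8.39 and 8.21 in control and at 8.63, 8.77 and 8.67 in TβRIII-KD. The groups did not overlap, and the log2 fold change was 0.39 (SE 0.08; adjusted p = 0.0337), but the call was lost without any 1 of the 6 arrays (0.0527 to 0.140). NES (nestin) had a fold change of 0.10 and LMNA (lamin A/C) one of 0.17, and neither passed (adjusted p 0.684 and 0.325). Of 5 measured vimentin partners and cross-linkers 0 passed the limma test, a list too short to set 0 against the 3.35% of all rows. Among the 5, 2 had an unadjusted p under 0.05, a count too small to set against the 15.2% of all rows. SVIL (supervillin, an actin and membrane linker) had the smallest, with a fold change of -0.33 (adjusted p = 0.0968), and PLEC (plectin, which ties vimentin to other filaments) had 0.15 (0.396).

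**Figure D4:**
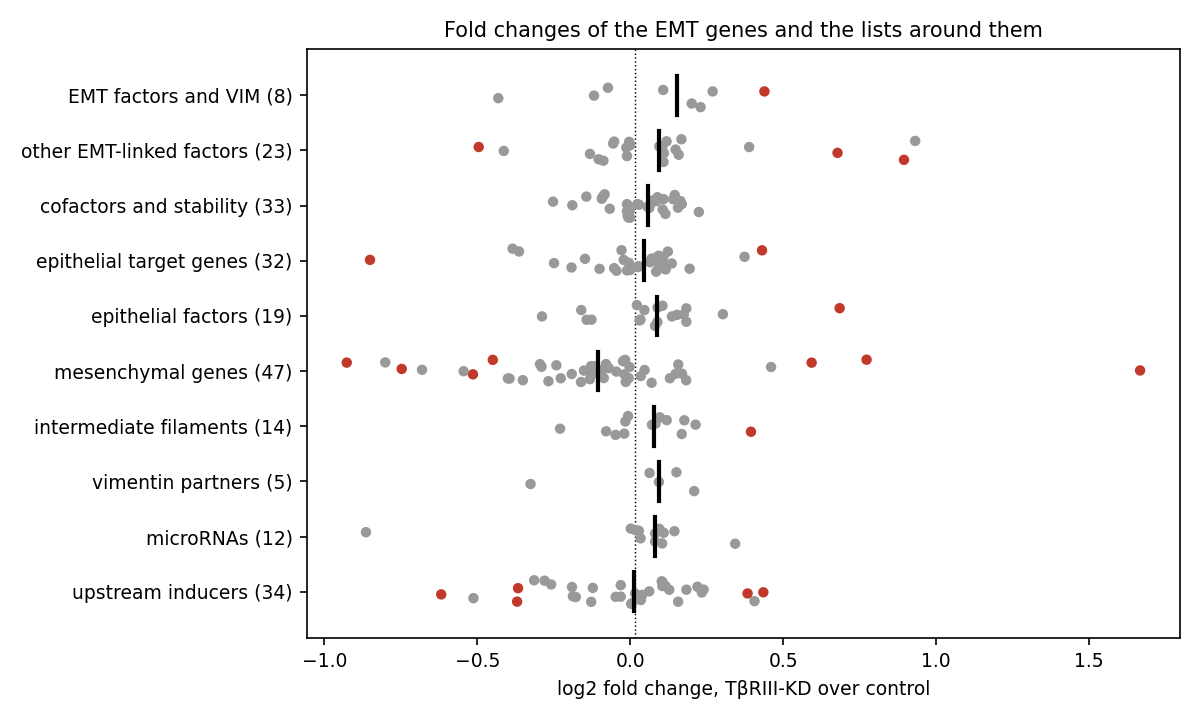
Fold change on the log2 scale (TβRIII-KD over control, horizontal axis) of every measured gene of the EMT set and of the 9 lists around it, with the number of genes in brackets. Each point is a gene, red where it was past the test, the black bar is the median of the list, and the dotted line is the median of all rows (0.01). The medians lie between -0.11 for the mesenchymal genes and 0.15 for the EMT genes.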

How the data were processed

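RNA of SUM159 three-dimensional cultures was hybridized to 6 Affymetrix human gene 1.0 ST arrays, scanned with AGCC 3.2.4. The log2 values analysed are those the authors deposited, computed by RMA (oligo, R 3.0.1). RMA subtracts background, gives all arrays 1 distribution and pools the probes of a transcript, which can compress changes of dim and of very bright rows. The genome build of the probe annotation is not given in the sources used here. Gene symbols were taken from the platform annotation, and 19129 of 22148 rows had 1 symbol, 1735 several and 1284 none. Precision is limited by the number of arrays.

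Fold changes of TβRIII-KD over control came from limma 3.58.1 under R 4.3.3 (lmFit and eBayes without trend, two-sided), with Benjamini-Hochberg adjustment over all rows, on the samples as labelled. SE and 95% intervals are those of limma, except for the differences of paralogues, where the SE comes from the spread of the arrays. The paper also names limma for these arrays, and the unpaired t-test for its data in general. Single genes were also tested by exact permutation. The procedure was tested on simulated data. The members and the gene lists were chosen with earlier results of these data known. Named genes were the members, TGFBR3, CDH1, CDH2, FN1, EPCAM, ESRP1, MIR200C, up to 5 genes past the test in each direction of each list (for lists without one, the gene of smallest p), and the 2 genes most like ZEB2. Every other gene named was chosen after its values were seen.

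Alternatives were a trend or robust moderation, array weights, the unpaired t-test, a replicate block, a fold limit and the omission of each array. Others were rows at or above the median mean signal, rows with 1 symbol, the mean of a gene's rows, centred arrays and repeated quantile normalization.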

Additional observations from a re-analysis of the deposited data

How the results depend on the processing

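With 3 arrays per group, single arrays decided many calls. The number of EMT genes that rose was 1 and ranged from 0 to 1 with an array left out. It was 3 with the unadjusted and 0 with the adjusted unpaired t-test, and 0 with the fold limit. The number that fell was 0, and 1 with a trend, with the unadjusted t-test and with rows at or above the median signal. Signal over background was not analysed.

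Reversals of direction were limited to values near 0. With an array left out, the log2 fold change ran from -0.13 to 0.0056 for VIM, from -0.0022 to 0.13 for CDH1, from -0.052 to 0.16 for MIR200C, from -0.10 to 0.14 for MIR141 and from -0.063 to 0.033 for TCF4. With repeated quantile normalization MIR141 had -0.023 and TCF4 0.00221, and with array weights MIR141 had -0.00384. TGFBR3 was negative under every setting tried, from -0.89 to -0.67 with an array left out, and at -0.79 it was not called by the adjusted t-test.

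Other EMT-linked factors past the test numbered 3, and 5 with a trend, centred arrays, rows at or above the median signal, rows with 1 symbol, the mean of a gene's rows or the replicate block, and 0 to 4 with an array left out. With an array left out, the epithelial targets had 1 to 3, the mesenchymal genes 3 to 10, the intermediate filaments 0 and the upstream inducers 0 to 3. The fold limit left 1 epithelial target, 0 intermediate filaments and 1 upstream inducer. After adjustment the t-test called 1 epithelial target and 0 other EMT-linked factors, epithelial factors, mesenchymal genes, intermediate filaments and upstream inducers. Unadjusted, it called 9 other EMT-linked factors, 1 cofactor, 6 epithelial targets, 3 epithelial factors, 13 mesenchymal genes, 3 intermediate filaments, 2 vimentin partners, 1 microRNA and 10 upstream inducers. The cause of these changes was not tested.

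The replicate numbers were not taken to pair the arrays. The deviations of same-numbered arrays from their group means correlated at -0.06, 0.11 and 0.31, and not every array correlated best with its own number. With the replicate block, ZEB2 kept its call (adjusted p = 0.0263). JAG2 (0.0557) and STAT3 (0.0546) lost theirs, and MIR21 (0.00158), ID2 (0.0349), JUP (0.0396) and TGFB2 (0.0422) gained one, which made 1 microRNA called where there were 0. Among the other single genes refitted with the block, no call changed.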
